A study of Mus musculus with 6 samples.

Results

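The adhesion G-protein-coupled receptors described here are 8 genes of the mouse heart: Adgrg6, Adgrg1, the latrophilins Adgrl1, Adgrl2 and Adgrl3, Adgra2, Adgrf5 and Adgre5. They were found by gene name, 8 of the 45706 genes in the table, and belong to a family of 30 genes searched for in it. They were put together with the difference between the 2 groups of hearts already known, Adgrg6 being among the larger differences of the study. Their differences below are therefore descriptions, and the limma calls given for them are not read as a test. The lists of further genes used below were also chosen with earlier results of these data known. Their counts, medians and p-values are descriptions as well.

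The series compared 3 embryonic hearts lacking Rbpms and Rbpms2 in cardiomyocytes with 3 hearts of littermate controls, all of strain C57BL6/J and sequenced as stranded poly(A) RNA libraries. The knockout hearts carried floxed alleles of both genes and a Cre transgene under the alpha-myosin heavy chain promoter (flox/flox for RBPMS and for RBPMS2, and positive for aMyHC Cre). The control hearts carried the same floxed alleles, and their labels name no Cre, so that deletion and transgene cannot be told apart. Cre from this promoter acts in cardiomyocytes, while whole hearts were sequenced, so the receptors of all other heart cells were measured with those of the muscle. The sources used here do not give the embryonic day.

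Values are normalised reads: by the spacing of low values, the authors scaled all reads of a library by 1 factor and rounded the result. Their totals were 17861435 to 18439201 per heart, from an estimated 12961438 to 25838007 reads before that scaling. Rbpms had values of 1134, 1117 and 852 in knockout hearts 1 to 3 and 6998, 3868 and 7656 in control hearts 1 to 3, and Rbpms2 had 879, 1003 and 911 in knockout hearts and 1711, 1362 and 1998 in control hearts, so both targeted genes were lower in every knockout. All 9 cardiomyocyte markers examined, among them Tnnt2, Myh7 and Ttn, were abundant in all 6 hearts. By their Xist level, 1 knockout and 2 controls were female, and 2 knockouts and 1 control were male.

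Adhesion receptors join a long extracellular part, built for binding matrix or neighbouring cells, to a membrane part that spans the membrane as in other G-protein-coupled receptors. Most are cut within the receptor at a conserved site, and the stretch next to the cut then acts as a built-in agonist. In mice, loss of Adgrg6 has been reported to impair the trabeculation of the heart, the formation of the muscular ridges that line the ventricle. These data do not address in which cells that role lies. The same receptor is needed for the myelination of peripheral nerves.

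Adgrg6 (GPR126), a receptor for type IV collagen, laminin and prion protein that can raise cyclic AMP, was the member with the largest difference. Its values were 862, 1087 and 947 in knockout hearts 1 to 3 and 397, 395 and 329 in control hearts 1 to 3. The lowest knockout was above the highest control. The means were 965 ± 114 in knockout hearts and 374 ± 38.7 in control hearts (SD, n = 3 each). Their ratio was 2.58, which is 1.37 on the log2 scale (SE 0.11). In order of log2 fold change it was number 101 of the 15556 genes tested, those averaging 10 or more over the 6 hearts. Beside it, 11 endothelial and endocardial markers summed to 25300 to 27908 in knockout hearts and 21959 to 22298 in control hearts. The ratio of mean sums, knockout over control, was 1.21 for them, 1.34 for fibroblast and 1.68 for macrophage and leukocyte markers. It was 1.15 for mural, 1.14 for epicardial, 0.95 for Schwann and neural, 0.92 for cardiomyocyte and 0.68 for erythroid markers. The part of these cell types in the Adgrg6 difference was not tested. The gene (ENSMUSG00000039116) lies on the minus strand of mm10 chromosome 10, from 14402583 to 14545659. In bulk tissue, more cells that express a gene and more RNA per cell cannot be told apart, which holds for every value here.

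Adgrg1 (GPR56), a collagen III receptor of the same subfamily known for its part in the development of the cerebral cortex, lay on the other side. Its values were 171, 191 and 177 in knockout hearts and 235, 266 and 317 in control hearts. The groups did not overlap, and the knockout hearts were closer together than the control hearts. The means were 180 ± 10.3 in knockout hearts and 273 ± 41.4 in control hearts (SD, n = 3 each), and the log2 fold change was -0.59 (SE 0.13). The gene (ENSMUSG00000031785) lies on the plus strand of chromosome 8, from 94974751 to 95014217. Since both genes were measured in the same libraries, their ratio does not depend on how libraries were scaled. Per kb of exon, the ratio of Adgrg6 to Adgrg1 was 2.24, 2.52 and 2.37 in knockout hearts and 0.749, 0.658 and 0.460 in control hearts. By this measure Adgrg6 was the higher of the pair in every knockout and Adgrg1 in every control. The measure divides by the joined length of all annotated exons, 12.228 kb for Adgrg6 and 5.421 kb for Adgrg1. In undivided values Adgrg6 was the higher in every heart.

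**Figure D1:**
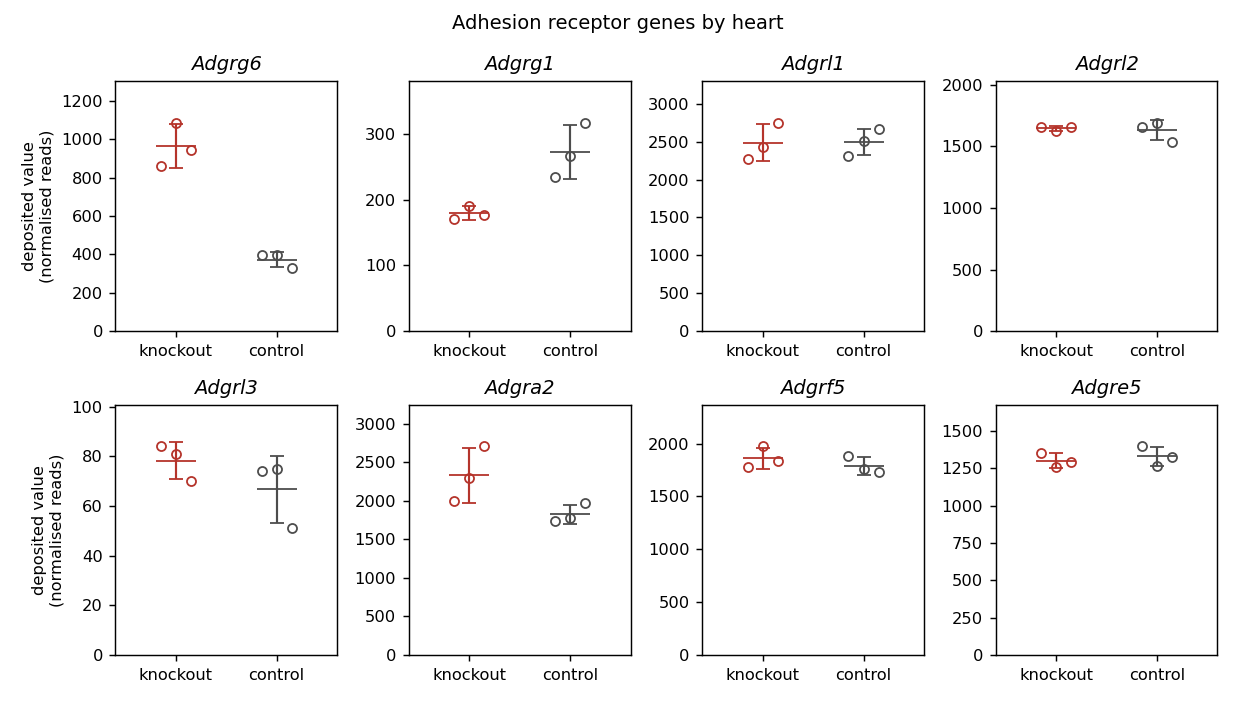
Deposited value (normalised reads, linear axis from 0, own scale per gene) of each of the 8 receptor genes, with 3 knockout hearts on the left and 3 control hearts on the right. Circles are hearts, and bars are the mean ± SD. The hearts of the groups are apart for Adgrg6, Adgrg1 and Adgra2 and overlap for the other 5.

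The promoter windows of these receptors are shown because they are the members farthest up and farthest down. They run from 250 bases before to 50 bases after each start and come from RefSeq (build GRCm38.p6), where 6 of the 8 members matched an entry. Capitals mark CG dinucleotides. The windows are chr10:14544987-14545286 on the minus strand for Adgrg6, chr8:94976859-94977158 on the plus strand for the first start of Adgrg1 and chr8:94984149-94984448 on the plus strand for its second start.
Adgrg6: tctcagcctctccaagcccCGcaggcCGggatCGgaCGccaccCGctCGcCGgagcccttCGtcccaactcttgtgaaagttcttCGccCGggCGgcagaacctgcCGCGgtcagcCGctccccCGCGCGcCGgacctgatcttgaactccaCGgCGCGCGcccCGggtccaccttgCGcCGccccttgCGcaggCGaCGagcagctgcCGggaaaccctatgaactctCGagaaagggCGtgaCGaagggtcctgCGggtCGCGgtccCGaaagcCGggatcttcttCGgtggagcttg
Adgrg1 first start: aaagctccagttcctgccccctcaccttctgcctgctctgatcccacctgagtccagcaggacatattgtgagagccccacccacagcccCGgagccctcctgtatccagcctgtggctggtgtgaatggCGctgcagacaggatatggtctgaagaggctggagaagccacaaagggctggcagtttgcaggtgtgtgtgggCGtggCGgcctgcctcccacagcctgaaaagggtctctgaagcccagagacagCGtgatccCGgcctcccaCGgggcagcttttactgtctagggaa
Adgrg1 second start: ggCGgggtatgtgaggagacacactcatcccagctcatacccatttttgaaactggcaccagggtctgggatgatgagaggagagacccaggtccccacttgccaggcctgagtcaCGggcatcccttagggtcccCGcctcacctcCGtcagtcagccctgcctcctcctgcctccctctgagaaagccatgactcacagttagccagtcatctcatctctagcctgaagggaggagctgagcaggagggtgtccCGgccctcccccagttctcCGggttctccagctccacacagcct

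The Adgrg6 window held 38 CG dinucleotides and was 69.0% G and C, whereas the Adgrg1 windows held 7 and 6 and were 60.7% G and C each. Of all 32851 windows of this length, 95.6% held as many CG dinucleotides as the Adgrg6 window or fewer, and the median window held 7. Members whose groups overlapped also ranged widely, from 4 CG dinucleotides in the Adgrl2 window to 40 in the first Adgrl3 window. Searched on both strands, the GC box GGGCGG was found 2 times in the Adgrg6 window, 0 times in either Adgrg1 window and in 35.7% of all windows. The letters TATAAA (13.6% of all windows), CCAAT (37.4%) and CCGGAA, a core bound by ETS factors (14.9%), were in none of the 3 windows. The E-box letters CANNTG, which 72.3% of all windows hold, occurred 1 time in the Adgrg6 window and 2 times and 1 time in the Adgrg1 windows. These are matches of letters and were not tied to binding.

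The latrophilins are receptors of neuronal and other cells that bind teneurins and FLRT proteins on neighbouring cells. Adgrl1, first known as a receptor of the spider toxin alpha-latrotoxin, had values of 2273, 2435 and 2749 in knockout hearts and 2314, 2508 and 2666 in control hearts. Its groups overlapped throughout, with a log2 fold change of -0.01 (SE 0.08). Adgrl2 had 1659, 1622 and 1661 in knockout hearts and 1661, 1692 and 1539 in control hearts, a log2 fold change of 0.02 (SE 0.06). All 3 knockout hearts lay inside the range of the control hearts. Adgrl3 was the scarcest member, at 84, 81 and 70 in knockout hearts and 74, 75 and 51 in control hearts, from an estimated 36 to 121 reads per heart. Its log2 fold change was 0.25 (SE 0.19), the largest error of the 8, and control heart 3, which was also the shallowest library, held its lowest value. In mm10, Adgrl1 (ENSMUSG00000013033) lies on chromosome 8 from 83900105 to 83941954, Adgrl2 (ENSMUSG00000028184) on chromosome 3 from 148815583 to 148990555 and Adgrl3 (ENSMUSG00000037605) on chromosome 5 from 81020138 to 81825133.

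Adgra2 (GPR124), which with the membrane-anchored protein RECK presents WNT7 ligands to endothelial cells of the brain, had values of 1994, 2296 and 2704 in knockout hearts and 1734, 1780 and 1965 in control hearts. The groups did not overlap, though knockout heart 1 and control heart 3 nearly met. The means were 2331 ± 356 in knockout hearts and 1826 ± 122 in control hearts (SD, n = 3 each), and the log2 fold change was 0.34 (SE 0.10). Without knockout heart 3 the log2 fold change was 0.23, and without knockout heart 1 it was 0.45. Adgrf5 (GPR116), which regulates lung surfactant and is also expressed by endothelial cells, had 1777, 1973 and 1834 in knockout hearts and 1887, 1760 and 1727 in control hearts. The groups overlapped, with a log2 fold change of 0.05 (SE 0.07). Adgre5 (CD97), a receptor of leukocytes and other cells that binds CD55, had 1354, 1257 and 1289 in knockout hearts and 1396, 1267 and 1327 in control hearts. These groups overlapped as well, with a log2 fold change of -0.03 (SE 0.07). The Adgre5 gene overlaps Ddx39 on the other strand, which had 1181, 1197 and 1098 in knockout hearts and 1629, 1688 and 1791 in control hearts. The overlap is of whole gene spans, and shared exon bases were not measured. The sources used here do not say whether counting used strand, so reads from bases that both genes share may not have been told apart. The same holds for Adgra2 and Brf2, which had 175, 160 and 177 in knockout hearts and 135, 169 and 215 in control hearts. Adgra2 (ENSMUSG00000031486) and Adgre5 (ENSMUSG00000002885) lie on chromosome 8, from 27085583 to 27123436 and from 83723251 to 83741326, and Adgrf5 (ENSMUSG00000056492) lies on chromosome 17 from 43360451 to 43459557.

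By limma with Benjamini-Hochberg adjustment over 15556 genes, 3 of the 8 members were past an adjusted p of 0.05, Adgrg6 and Adgra2 higher and Adgrg1 lower, where 17.2% of all genes tested were past it, 8.61% higher and 8.56% lower. The hearts of the groups did not overlap for the same 3 genes, as for 35.4% of all genes tested. All 8 members passed the filter on low values. Because the members were chosen with this contrast known, nothing is read from these shares. The median log2 fold change was 0.04 over the members and 0.0018 over all genes tested. As a limit, Adgra2 was past the threshold under 8 of 15 alternative settings and in 1 of the 6 fits that left out a heart, the one without knockout heart 1.

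Levels of different genes were compared as deposited value per kb of exon, with the joined length of all annotated exons from GENCODE M21. That length is 14.198 kb for Adgrl2 and 9.01 kb for Adgrf5, whose longest protein-coding transcripts have 6052 and 8535 bases. The order between genes therefore depends on the length chosen, and levels by transcript length were not computed. In knockout hearts the order from high to low was Adgra2, Adgre5, Adgrl1, Adgrf5, Adgrl2, Adgrg6, Adgrg1 and Adgrl3. Only Adgra2, at 404 ± 61.7 per kb, and Adgre5, at 346 ± 13.2 per kb (SD, n = 3 each), overlapped heart by heart there, and all other neighbours in the order were apart. In control hearts the order was Adgre5, Adgra2, Adgrl1, Adgrf5, Adgrl2, Adgrg1, Adgrg6 and Adgrl3. The top 3, at 354 ± 17.2, 316 ± 21.2 and 291 ± 20.5 per kb (SD, n = 3 each), overlapped with their neighbours in this order, and the others were apart. Adgrg6, at 78.9 ± 9.29 per kb in knockout hearts and 30.6 ± 3.16 per kb in control hearts (SD, n = 3 each), was sixth among the knockouts and seventh among the controls. Adgrg1, at 33.1 ± 1.89 per kb in knockout hearts and 50.3 ± 7.64 per kb in control hearts, held the reverse places. Adgrl3 was last in both groups, at 4.41 ± 0.415 per kb in knockout hearts and 3.76 ± 0.765 per kb in control hearts.

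As a share of the summed level of the 8 members per kb, Adgrg6 made up 5.34% ± 0.586 in knockout hearts and 2.25% ± 0.277 in control hearts (SD, n = 3 each). Adgrg1 made up 2.25% ± 0.151 in knockout hearts and 3.70% ± 0.492 in control hearts. The sum itself was 1478 ± 87.5 per kb in knockout hearts and 1359 ± 28.7 per kb in control hearts. Adgra2 made up 27.2% ± 2.55 in knockout hearts and 23.3% ± 1.10 in control hearts.

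**Figure D2:**
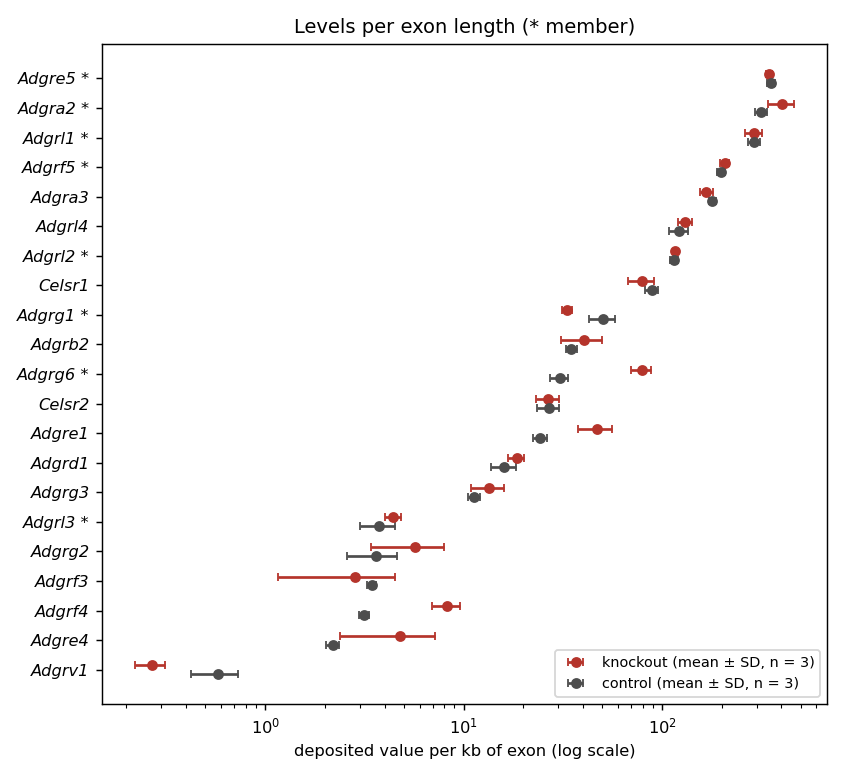
Deposited value per kb of exon (log axis) of the 8 members, marked with a star, and the 13 other family genes that passed the filter on low values, as mean ± SD of 3 knockout hearts (upper point of each pair) and 3 control hearts (lower point), ordered by the control mean. In control hearts the members run from Adgrl3 at 3.76 to Adgre5 at 354, and 4 members hold the top places. The pairs are widest apart for Adgrf4, Adgrg6 and Adgre4, higher in knockout hearts, and Adgrv1, lower in them.

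Of the 22 other adhesion receptor genes looked for, all were in the table and 13 passed the same filter on low values. Of those 13, 2 rose in knockout hearts and 0 fell by the same limma fit (17.2% of all genes tested passed), and the median log2 fold change was 0.19, against 0.0018 over all genes tested. Adgre1, which encodes the macrophage antigen F4/80, had values of 121, 180 and 156 in knockout hearts and 80, 72 and 85 in control hearts. It rose by a log2 fold change of 0.92 (SE 0.17 and adjusted p = 0.00549 by limma). Adgrf4 had 24, 30 and 22 in knockout hearts and 10, 10 and 9 in control hearts, a log2 fold change of 1.29 (SE 0.27 and adjusted p = 0.00982 by limma) at a level of few reads. Without knockout heart 2, Adgrf4 did not pass. A list of 10 macrophage and leukocyte markers, Adgre1 not among them, summed to 2547 to 3478 in knockout hearts and 1787 to 1958 in control hearts, and their part in the rise of Adgre1 was not tested. Adgre4, a close relative of Adgre1 in macrophages, had 7, 22 and 21 in knockout hearts and 8, 8 and 7 in control hearts and did not pass.

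The better measured of the remaining receptors had overlapping groups. Adgrl4 (ELTD1), an endothelial receptor, had a mean of 598 ± 48.0 in knockout hearts and 559 ± 60.7 in control hearts (SD, n = 3 each). Adgra3 had a mean of 1357 ± 103 in knockout hearts and 1456 ± 58.4 in control hearts. Celsr1 and Celsr2, cadherin-type receptors of planar cell polarity, had log2 fold changes of -0.17 (SE 0.11) and -0.02 (SE 0.13). Adgrb2, Adgrd1 and Adgrg3 had log2 fold changes of 0.19 (SE 0.15), 0.21 (SE 0.14) and 0.22 (SE 0.17), none past the threshold. Adgrg2, Adgrf3 and Adgrv1 had means of 30 or less in both groups, and Adgrv1 had values of 6, 8 and 6 in knockout hearts and 16, 17 and 10 in control hearts (log2 fold change -0.98 with SE 0.34 and adjusted p = 0.0785 by limma). The other 9 genes were below the filter, among them Celsr3 and Adgrb1, and Adgrg4 was listed at 0 in every heart. The 8 members made up 71.2% to 73.8% of the summed level per kb of all 30 family genes in each heart.

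**Figure D3:**
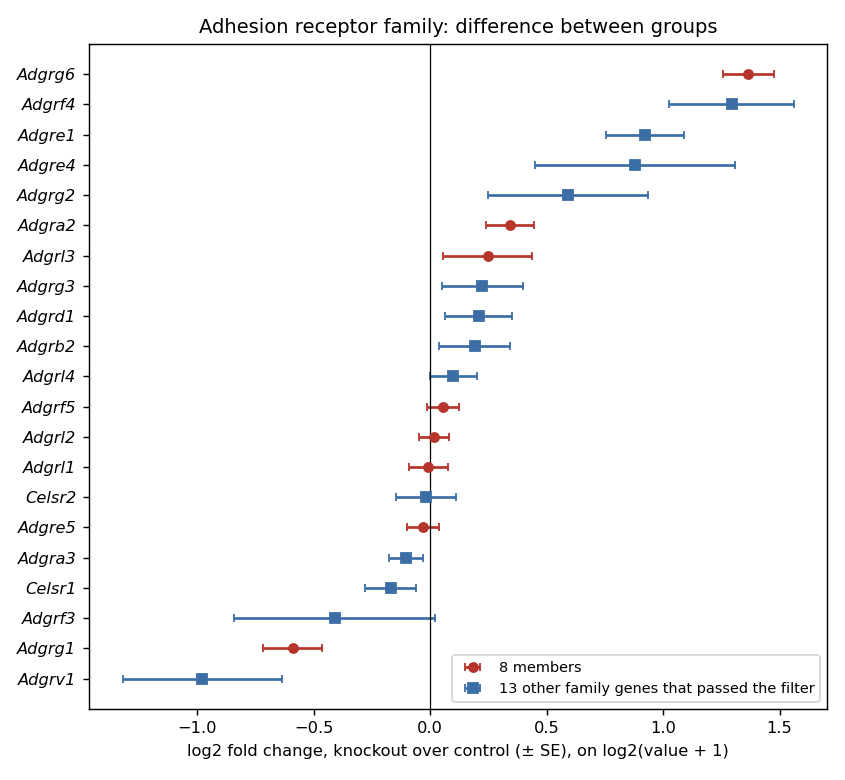
Log2 fold change, knockout over control, with its SE from limma on log2(value + 1), for the 8 members (circles) and the 13 other family genes that passed the filter on low values (squares), ordered by size. Adgrg6 is highest at 1.37, Adgrf4 and Adgre1 follow, and Adgrv1 (-0.98) and Adgrg1 (-0.59) are lowest.

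The known binding partners of these receptors were examined as a list of 33 genes, of which 29 passed the filter on low values. Like the other lists, it was chosen with earlier results of these data known. In knockout hearts 5 rose and 2 fell by limma (17.2% of all genes tested passed), with a median log2 fold change of 0.11. Of the 10 ligand genes of Adgrg6, 0 passed in limma and 0 in limma-voom, with 2 and 3 at an unadjusted p under 0.05. Col4a1 and Col4a2, the main type IV collagen chains, had log2 fold changes of 0.21 (SE 0.10) and 0.11 (SE 0.13), and Col4a5 had 0.21 (SE 0.08). Lama2, the laminin alpha2 chain, had 0.04 (SE 0.12) and Prnp, the prion protein gene, had 0.18 (SE 0.07 and adjusted p = 0.0843 by limma).

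Both partners listed for Adgrg1 passed, in opposite directions. Col3a1, its collagen ligand, had values of 44872, 50112 and 55332 in knockout hearts and 34575, 31064 and 37124 in control hearts. It rose by a log2 fold change of 0.55 (SE 0.10 and adjusted p = 0.00531 by limma). Tgm2, tissue transglutaminase, had 5986, 5461 and 5731 in knockout hearts and 7661, 7972 and 9029 in control hearts, a log2 fold change of -0.52 (SE 0.08 and adjusted p = 0.00201 by limma). Fibroblast markers, a list of 8 genes that does not hold Col3a1, summed to 76373 to 95619 in knockout hearts and 61655 to 70831 in control hearts, and their part in the rise of Col3a1 was not tested.

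For Adgre5, whose own level was nearly equal in the groups, the ligand gene Cd55 rose. Cd55 encodes a regulator of complement on the cell surface and had 462, 555 and 469 in knockout hearts and 205, 183 and 199 in control hearts. Every knockout lay above the highest control, with 1.33 as log2 fold change (SE 0.11 and adjusted p = 0.000239 by limma). Among the integrin subunits listed for CD97, Itgav had 2262, 2776 and 2707 in knockout hearts and 848, 921 and 697 in control hearts and rose by a log2 fold change of 1.65 (SE 0.11 and adjusted p = 0.000239 by limma), with no overlap of the hearts. Itga5, Itgb1 and Itgb3 had 0.09 (SE 0.09), 0.09 (SE 0.07) and 0.32 (SE 0.14) and did not pass. Thy1, another ligand, had a log2 fold change of 0.23 (SE 0.15).

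Reck, the partner of Adgra2, rose with values of 452, 532 and 517 in knockout hearts and 343, 321 and 347 in control hearts (log2 fold change 0.57 with SE 0.09 and adjusted p = 0.00356 by limma). The WNT ligands of this pair were nearly absent, with Wnt7a at 0 to 1 in knockout hearts and 0 to 3 in control hearts and Wnt7b at 3 to 5 in knockout hearts and 1 to 4 in control hearts. Of the teneurin and FLRT ligands of the latrophilins, Flrt3 had 188, 189 and 191 in knockout hearts and 259, 229 and 233 in control hearts (log2 fold change -0.34 with SE 0.10 and adjusted p = 0.0478 by limma). Nrxn3, a neurexin gene listed because neurexins bind Adgrl1, was low, with 28, 28 and 31 in knockout hearts and 12, 14 and 20 in control hearts (log2 fold change 0.91 with SE 0.26 and adjusted p = 0.0409 by limma). Flrt3 passed under 3 of 15 alternative settings and in none of the fits without a heart, and Nrxn3 under 6 of 14 and, of the fits without a heart, in that without control heart 3 alone. Tenm2, which was low, had a log2 fold change of -1.03 (SE 0.33) and did not pass. Flrt2 and Tenm4 had log2 fold changes of 0.19 (SE 0.08) and 0.35 (SE 0.13) and did not pass. For Adgrf5, Fndc4 had a log2 fold change of -0.06 (SE 0.11), and Sftpd, surfactant protein D, was listed at 0 in every heart, as was the teneurin gene Tenm1.

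**Figure D4:**
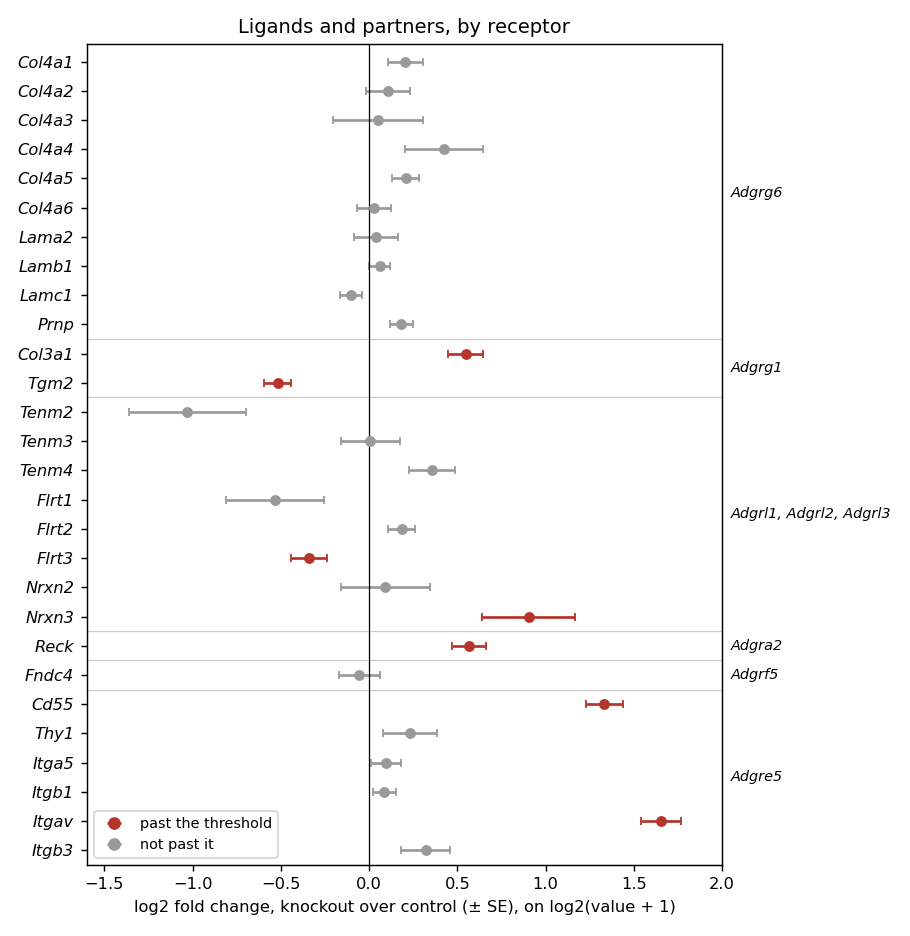
Log2 fold change, knockout over control, with its SE from limma on log2(value + 1), for 28 of the 29 ligand and partner genes that passed the filter on low values, grouped by the receptor named at the right. The 7 genes past an adjusted p of 0.05 are in red, with Itgav at 1.65 and Cd55 at 1.33 the highest and Tgm2 (-0.52) and Flrt3 (-0.34) below 0.

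Downstream of the receptors, 28 of 30 listed genes of G-protein alpha subunits, arrestins, small GTPase signalling and adenylyl cyclases passed the filter, of which 2 rose and 2 fell by limma (17.2% of all genes tested passed), with a median log2 fold change of 0.04. All 4 were adenylyl cyclases, the enzymes that make cyclic AMP. Adcy5, a main cyclase of heart muscle, had 2655, 2468 and 2779 in knockout hearts and 3240, 3566 and 3422 in control hearts (log2 fold change -0.37 with SE 0.07 and adjusted p = 0.00593 by limma). Adcy7 had 282, 340 and 320 in knockout hearts and 197, 223 and 179 in control hearts (log2 fold change 0.65 with SE 0.12 and adjusted p = 0.00575 by limma). Adcy9 fell by 0.55 on the log2 scale (SE 0.15 and adjusted p = 0.0335 by limma) and Adcy2, at means of 28.0 in knockout hearts and 12.7 in control hearts, rose by 1.13 (SE 0.30 and adjusted p = 0.0309 by limma). Each of the last pair passed in 1 of the 6 fits without a heart. Adcy6, the other main cyclase of heart muscle, had a log2 fold change of 0.07 (SE 0.06). Gnas, the stimulatory subunit that Adgrg6 can engage, had -0.24 (SE 0.12), and Gna12 and Gna13, the subunits that Adgrg1 engages, had -0.19 (SE 0.10) and 0.16 (SE 0.07), none past the threshold.

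Markers of several cell types also differed between the groups, where 17.2% of all genes tested passed, 8.61% higher and 8.56% lower. Of 11 endothelial and endocardial markers 5 rose and 0 fell, and the ratio of the mean sums, knockout over control, was 1.21. Within that list, Npr3 and Emcn, both high in the endocardium, had the highest log2 fold changes, 0.95 (SE 0.07) and 0.91 (SE 0.06). Nfatc1 of the same list had 0.38 (SE 0.09), and Cdh5, an endothelial cadherin, had the lowest, 0.00 (SE 0.08). The endothelial receptors Adgrf5 and Adgrl4 had log2 fold changes of 0.05 and 0.10 beside a median of 0.23 over this list. Of the 10 macrophage and leukocyte markers 7 rose and 0 fell. Their sum and Adgre1 were both highest in knockout heart 2, and their ratios of means were 1.68 and 1.93. Of 8 fibroblast markers 4 rose and 0 fell, with a median log2 fold change of 0.32. Of 6 mural and 7 epicardial markers 0 passed in limma, 5 and 2 had an unadjusted p under 0.05, and 1 and 2 passed in limma-voom. Of 5 erythroid markers 0 passed in limma and 0 in limma-voom, all 5 with an unadjusted p under 0.05, and the erythroid sum was 11087 to 14010 in knockout hearts and 14614, 15530 and 25124 in control hearts 1 to 3. Hbb-y, an embryonic globin gene of that list, had a log2 fold change of 0.68, while the list median was -0.56. Cardiomyocyte markers summed to 698249 to 758068 in knockout hearts and 770225 to 817818 in control hearts, and 1 of 9, Actn2, fell. Sox10, Foxd3 and the other Schwann and neural markers, 7 genes in all, had sums of 251 to 323 in knockout hearts and 261 to 338 in control hearts, and of the 3 that could be tested 0 passed in limma and 0 in limma-voom, 1 with an unadjusted p under 0.05. No marker of any list was at 0 in all hearts. The part of these cell types in the differences of Adgra2 and Adgrg1 was not tested either.

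**Figure D5:**
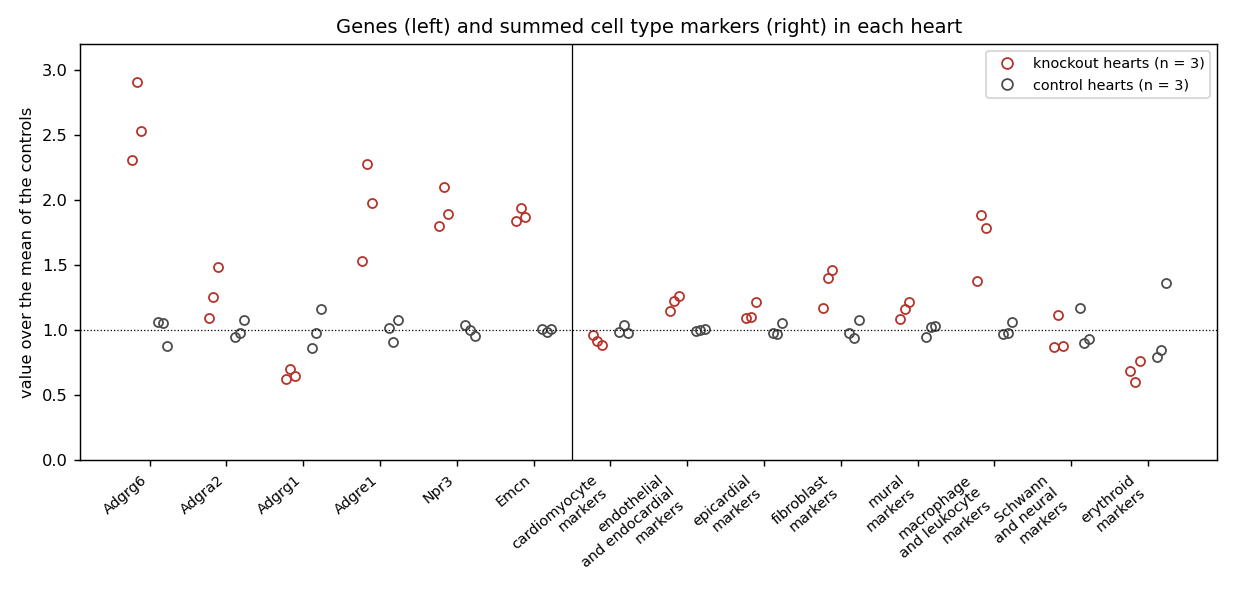
Value in each heart over the mean of the 3 control hearts (linear axis from 0) for 6 genes at the left of the line and for summed markers of 8 cell types at its right, with knockout hearts in red to the left of control hearts in grey. Adgrg6 lies at 2.31 to 2.91 in knockout hearts and the endothelial and endocardial sum at 1.14 to 1.26, and all hearts of Adgrg1 in knockouts lie at 0.63 to 0.70.

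Genes were ranked by the likeness of their pattern to Adgrg6, as Pearson's r of log2(value + 1) over the 6 hearts, among 10685 genes averaging 100 or more. The nearest were Cgnl1 (paracingulin, a junction protein), Wipi1 (an autophagy protein), Nptn (neuroplastin, an adhesion molecule), Npr3 (a natriuretic peptide clearance receptor) and Itgav, with r between 0.9965 for Itgav and 0.9998 for Cgnl1. A total of 342 genes reached an r of 0.95. The 6 hearts form 2 separate groups, so that r mostly reflects the difference between groups and is given as a description. The sizes of the differences were unlike, with log2 fold changes of 0.41 for Cgnl1, 0.26 for Nptn, 0.95 for Npr3 and 1.65 for Itgav beside 1.37 for Adgrg6.

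RBPMS proteins are known to bind RNA with paired CAC triplets. The longest protein-coding transcript of each member in GENCODE M21 was searched on its sense strand for CAC, 1 to 12 bases, CAC. Adgrg6 held 16 such pairs, 2.46 per kb, and 37.4% of 13483 protein-coding genes held as many per kb or fewer. Adgrg1 held 21 pairs, 5.81 per kb, at 88.6% of genes. The densest were Adgre5 with 7.67 per kb and Adgrf5 with 6.68 per kb, at 95.7% and 93.0% of genes, and Adgrl2 had the fewest with 2.31 per kb. The median gene held 3.03 per kb. Adgrl1, Adgrl3 and Adgra2 held 5.26, 4.18 and 3.47 per kb. Letters in annotated transcripts do not show binding, and values per gene do not show which isoforms were made.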

How the data were processed

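Poly(A) RNA of 3 knockout and 3 control hearts was measured, with groups and replicate numbers from the sample titles. The submitters' processing notes name Trimmomatic, STAR 2.4.2a, featureCounts 1.5.0, DESeq and DESeq2 and build mm10, with no role given here. The deposited values are a score: the authors' reads per gene, scaled by 1 factor for each library and rounded to whole numbers. The factor is read from the spacing of low values, as the header states no unit. It sets depth at 12961438 to 25838007 reads, and low values carry counting error. What 1 read is worth was 0.6921 to 1.4226, and below 1 exact reads cannot be recovered.

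The test was limma 3.58.1 (R 4.3.3) with a variance trend on log2(value + 1), two-sided, for 15556 genes with a mean of at least 10. Fold changes are on that scale and understate those of low genes. Benjamini-Hochberg adjustment ran over these genes, with a threshold of 0.05. Alternatives were pseudocounts of 0.1 and 10, no filter, a stricter filter (50 or more in at least 3 hearts), equal totals, quantile normalization, limma-voom on reads estimated from the step, the replicate number as a block, embryo sex as a term and leaving out each heart. The fit was tested on simulated data with known changes. That simulation gave every gene the same extra spread and held no effect of sex or heart. It checks the code and does not show how reliable the calls in these hearts are. Nothing in the labels says whether same-group libraries came from separate litters, so p-values measure the spread between these samples, which may be technical. No batch is named. Same-numbered hearts were not treated as pairs (correlations of deviations -0.04, -0.37 and 0.05), though so few hearts cannot exclude a pairing. Members and lists were chosen with earlier results of these data known. Named genes were all members, all filtered family genes, up to 8 partners and 6 effectors past the threshold, further list genes chosen after their values were seen, and the 5 genes most like Adgrg6. Some genes of the lists enter the counts and sums but are not reported by name here. Positions and exon lengths came from GENCODE M21, which held 45143 of 45706 identifiers. Tables were handled in pandas 2.3.3 under Python 3.11.15.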

Additional observations from a re-analysis of the deposited data

How the results depend on the processing

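A total of 15 alternatives were run, of which embryo sex as a term was chosen after seeing the data. The log2 fold change of Adgrg6 lay between 1.28 and 1.44 without each heart and between 1.34 and 1.40 under the others, and that of Adgrg1 between -0.69 and -0.48 and between -0.62 and -0.56. No member moved by more than the spread between hearts. Leaving out 1 of 3 hearts cannot exceed that spread, and the filters and the block leave a member's fold change as it is. For those settings the outcome was therefore fixed in advance. Of all genes, 2670 passed, against 1305 to 2370 without each heart (1305 without knockout heart 2 and 1669 without control heart 3) and 1755 with no filter on low values, where 26986 genes were tested. The other adhesion receptors past the threshold numbered 2, against 1 to 3 without each heart and 1 with the stricter filter, which kept 8 of them. The partners numbered 7, against 5 to 6. The effectors numbered 4, against 2 to 5 without each heart (2 without knockout heart 2 or control heart 2) and 2 with no filter. With the replicate number as a block 3530 genes passed, 3 of them members and 6 effectors, and with sex as a term 2090, 2 of them members. The labels tie same-numbered hearts by number alone, so whether the block is a pairing is not known. Within sexes, the log2 difference of Adgrg6 was 1.59 in females (1 knockout, 2 controls) and 1.19 in males (2 knockouts, 1 control). Depth limits Adgrl3 and Adgrf4, whose values rest on few reads. With 3 hearts a group, a missed threshold does not show equal levels.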
